A study of Homo sapiens with 29 samples.

Results

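The genes examined were 9 genes of HLA class I antigen presentation: HLA-B, HLA-C, HLA-E, HLA-F, B2M, TAP1, TAP2, TAPBP and NLRC5. They were chosen by name, as the rows of these genes among the 28266 genes of a raw count table, and their counts were summed over the 2 sequencing lanes of each library. The libraries came from IMR90 ER:RAS cells, a human lung fibroblast line infected with a retrovirus that carries RAS G12V fused to the estrogen receptor, so that 4-hydroxytamoxifen (4OHT) switches the oncogene on and brings about oncogene-induced senescence. Cells received siRNA 1 day before 4OHT or its solvent DMSO, and RNA was taken on day 7. There were 3 groups of 6 libraries. DMSO_siNT had non-targeting siRNA without oncogene induction, and 4OHT_siNT had non-targeting siRNA with RAS switched on. In 4OHT_siSMARCA4, RAS was switched on with siRNA against SMARCA4, an ATPase of the SWI/SNF chromatin remodeling complex. All 3 groups carried the ER:RAS fusion and a transfected siRNA, and all came from 1 cell line. In each group 3 libraries had the siRNA numbered 2 and 3 had the siRNA numbered 4. Libraries are named by siRNA number and set label, such as 4-2V; the meaning of V and VM is not stated. Labels ended in VM for all of 4OHT_siNT, for 3 of 6 DMSO_siNT libraries and for 2 of 6 knockdown libraries; 1 knockdown library, whose column carries siRNA number 2 and the set 1VM where the sample labels give 1V, matched no label. It is called unlabelled here and is not counted as VM.

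Class I molecules show peptides made inside the cell to CD8 T cells. A heavy chain (such as HLA-B, HLA-C or the less variable HLA-E, HLA-F and HLA-G) pairs with β2-microglobulin, the product of B2M, and takes up a peptide that the TAP1/TAP2 transporter has pumped into the endoplasmic reticulum and that tapasin, the product of TAPBP, helps to load. The proteasome cuts the peptides, NLRC5 switches on class I genes in the nucleus, and interferons raise most of the pathway. Class I molecules also restrain natural killer (NK) cells, HLA-C through KIR receptors and HLA-E through the NKG2A receptor, and killing of senescent cells by NK cells was the subject of the study.

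Of the 9 genes, 7 lie in the major histocompatibility complex on chromosome 6, B2M lies on chromosome 15 and NLRC5 on chromosome 16. Promoter sequences of 7 of the 9 were found in the RefSeq table used here (GRCh38.p14); HLA-E and NLRC5 are named only. TAP1 had 2 entries, of which the one at the start of its canonical transcript is used. The 250 bases before the start site are printed for the members whose transcripts moved in RAS senescence (B2M, TAP1, TAP2 and TAPBP), for HLA-B as a heavy chain that was not called, and for PSMB9, an immunoproteasome gene that shares an intergenic stretch with TAP1. Capitals mark 5 searched motifs on either strand: the core of the interferon-stimulated response element (ISRE), GAAANNGAA; a κB site, GGATTCCCC; the CCAAT box, CCAAT; the TGACG core of the cyclic AMP response element (CRE); and the AP-1 site, TGANTCA.
B2M (chr15:44711267-44711516, plus strand): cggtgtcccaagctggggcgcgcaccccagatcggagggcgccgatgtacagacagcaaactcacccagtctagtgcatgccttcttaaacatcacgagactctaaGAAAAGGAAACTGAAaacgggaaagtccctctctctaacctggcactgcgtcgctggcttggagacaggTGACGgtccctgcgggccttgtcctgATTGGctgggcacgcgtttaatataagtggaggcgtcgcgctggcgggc
HLA-B (chr6:31357180-31357429, minus strand): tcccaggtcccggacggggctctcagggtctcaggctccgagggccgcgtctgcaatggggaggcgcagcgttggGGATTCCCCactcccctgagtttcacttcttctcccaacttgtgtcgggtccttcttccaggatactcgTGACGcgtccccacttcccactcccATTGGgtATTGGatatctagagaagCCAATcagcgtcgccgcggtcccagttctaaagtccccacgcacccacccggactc
TAP1 (chr6:32853705-32853954, minus strand): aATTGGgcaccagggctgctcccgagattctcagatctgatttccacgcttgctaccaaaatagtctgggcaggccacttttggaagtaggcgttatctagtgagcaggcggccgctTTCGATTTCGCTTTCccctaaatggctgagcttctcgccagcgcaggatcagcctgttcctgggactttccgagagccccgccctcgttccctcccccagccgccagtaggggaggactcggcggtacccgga
PSMB9 (chr6:32853942-32854191, plus strand): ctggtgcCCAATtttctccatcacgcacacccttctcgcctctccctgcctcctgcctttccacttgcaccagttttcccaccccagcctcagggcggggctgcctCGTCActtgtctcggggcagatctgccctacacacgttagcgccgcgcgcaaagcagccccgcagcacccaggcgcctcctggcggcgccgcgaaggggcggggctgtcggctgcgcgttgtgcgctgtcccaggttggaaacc
TAP2 (chr6:32838740-32838989, minus strand): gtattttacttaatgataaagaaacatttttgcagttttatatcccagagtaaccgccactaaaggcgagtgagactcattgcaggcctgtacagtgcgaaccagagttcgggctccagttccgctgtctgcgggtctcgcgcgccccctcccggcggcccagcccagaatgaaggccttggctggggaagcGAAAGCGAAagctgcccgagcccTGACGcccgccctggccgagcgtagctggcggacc
TAPBP (chr6:33314079-33314328, minus strand): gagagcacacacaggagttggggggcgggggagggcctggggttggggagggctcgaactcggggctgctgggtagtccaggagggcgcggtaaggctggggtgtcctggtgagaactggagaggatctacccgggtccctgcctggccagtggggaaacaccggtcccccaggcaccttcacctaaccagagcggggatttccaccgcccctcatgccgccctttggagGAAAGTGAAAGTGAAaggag

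The ISRE core was in 6.88% of the 35116 promoters of the table, cut to the same length, and in 5 of the 7 member genes with an entry. TAP1, TAPBP and B2M each held 2 overlapping copies of it, and TAP2 and HLA-F held 1. The windows of HLA-B and HLA-C held no copy of these letters. Other forms of the ISRE were not searched, so a window without this core may still hold one. HLA-B held the κB letters, found in 0.308% of all promoters, with 3 CCAAT boxes. HLA-C, not printed, held 4 CCAAT boxes and TGACG but no match to the κB letters. Of κB sites only GGATTCCCC was searched, so other forms may be present unmarked in any window. CCAAT was in 32.0% and TGACG in 21.2% of all promoters, so a match to either is common. TGANTCA, in 6.57% of all promoters, was in none of the printed windows. The start sites of TAP1 (minus strand, base 32853704) and PSMB9 (plus strand, base 32854192) lay 488 bases apart and pointed away from each other, and the PSMB9 window held CCAAT and TGACG without an ISRE core. Its CCAAT box is the one also marked in the TAP1 window, since the windows overlap at their far ends.

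Library totals ran from 9657309 to 18039313 counts, and 13136 genes passed the filter on low counts. Knockdown held at the transcript level, with SMARCA4 at 70.4 to 141 CPM (counts divided by the TMM-scaled library total) in 4OHT_siSMARCA4 against 275 to 330 in 4OHT_siNT and 189 to 232 in DMSO_siNT. Of 7 fibroblast markers all passed the filter, at a summed 8620 to 31213 CPM per library. Of 6 immune cell markers none passed, and their summed level was 0.149 to 0.956 CPM, with CD3E at 0 counts in DMSO_siNT and 4OHT_siSMARCA4. The library DMSO_siNT 4-2V stood apart from the other 5 of its group, as described with the values below, so the contrasts between groups and between siRNA numbers are also given without it. The labels do not say that libraries came from separate cultures, so p-values measure the spread between these libraries, which may be technical. Reads of the HLA genes are also uncertain for another reason: the genes are close copies that differ between people, and how reads matching several of them were counted is not given in the sources used here.

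Among the members, B2M had the highest level per length and NLRC5 the lowest of those that passed the filter. In 4OHT_siNT, CPM per kb of merged exons were 199 ± 25.6 (SD, n = 6) for B2M, 91.4 ± 5.78 for HLA-C, 72.1 ± 6.39 for HLA-B and 64.2 ± 7.86 for HLA-E. On the same per-length scale TAPBP stood at 29.4 ± 4.34, TAP1 at 19.8 ± 0.856, TAP2 at 6.50 ± 0.534 and NLRC5 at 1.27 ± 0.207. The ranges of mean ± SD of HLA-B and HLA-E overlapped, and the other neighbours in this order were further apart than their SDs. The places of HLA-B and HLA-C depended on the length used: per kb of the canonical transcript, HLA-B was at 217 CPM and HLA-C at 149. HLA-F was near 0, with 0 to 3 counts per library and 3, 7 and 3 counts in all in DMSO_siNT, 4OHT_siNT and 4OHT_siSMARCA4. It did not pass the filter and was not tested, so 8 of the 9 members enter the counts that follow.

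In RAS senescence transcripts of the peptide transporter and tapasin were higher and those of β2-microglobulin lower, while no change of the heavy chains was called. As given below, the tapasin and β2-microglobulin changes were called with the siRNA numbered 4 and not with the one numbered 2. In 4OHT_siNT against DMSO_siNT, edgeR called TAP1, TAP2 and TAPBP higher and B2M lower among the 8 members tested. Of all genes tested, 23.9% were called higher and 28.9% lower, so a share of 3 of 8 higher and 1 of 8 lower is to be read against a contrast in which most genes were called. The median log2 fold change was 0.10 over the 8 members and -0.05 over all genes tested.

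TAP1, which with TAP2 forms the transporter, had 31.9, 52.1 and 59.2 CPM as the lowest, median and highest of the 6 DMSO_siNT libraries. In 4OHT_siNT the corresponding values were 87.0, 95.6 and 97.1 CPM. Every 4OHT_siNT library lay above every DMSO_siNT library, and the fitted difference was 1.88-fold (log2 0.91 ± 0.12 SE, adjusted p = 3.62e-06).

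TAP2 had 18.4, 40.4 and 43.6 CPM in DMSO_siNT and 59.6, 68.7 and 73.5 CPM in 4OHT_siNT (lowest, median, highest). The groups again did not overlap, with a log2 fold change of 0.88 ± 0.15 (SE) and an adjusted p of 6.11e-05. Without 4-2V, the lowest DMSO_siNT library for both genes, the log2 fold changes were 0.82 for TAP1 and 0.76 for TAP2.

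TAPBP, whose product tapasin holds empty class I molecules beside the transporter, had 74.6, 150 and 168 CPM in DMSO_siNT and 159, 195 and 242 CPM in 4OHT_siNT. These ranges overlapped, as DMSO_siNT 2-1V exceeded 1 of the 4OHT_siNT libraries. The log2 fold change was 0.50 ± 0.15 (SE, adjusted p = 0.0101) and 0.38 without 4-2V (adjusted p = 0.00309).

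B2M moved the other way. It had 782, 676, 655, 737 and 894 CPM in DMSO_siNT libraries 2-1V, 2-2V, 2-2VM, 4-2VM and 4-3VM, and 1854 CPM in 4-2V. The 4OHT_siNT libraries had 526, 622 and 738 CPM (lowest, median, highest), and 2 of the 6 lay above the lowest DMSO_siNT library. The fitted fall was 0.59 on the log2 scale with all libraries (log2 fold change -0.59 ± 0.20 SE, adjusted p = 0.0214). It shrank to -0.27 ± 0.10 without 4-2V (adjusted p = 0.0309), so the size of the fall rested on that library while the call did not. The call ended without 4OHT_siNT 4-1VM, at an adjusted p of 0.0502.

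The heavy chains and NLRC5 were not called in this contrast. HLA-B had 290, 352 and 488 CPM in DMSO_siNT and 300, 330 and 382 CPM in 4OHT_siNT. HLA-C had 213, 251 and 485 CPM and then 212, 225 and 252 CPM. Both groups overlapped throughout, and the log2 fold changes were -0.12 ± 0.12 (SE) for HLA-B and -0.31 ± 0.16 for HLA-C. Without 4-2V, which held the highest value of both, they were -0.02 and -0.08. HLA-E had 168, 181 and 202 CPM in DMSO_siNT and 165, 187 and 226 CPM in 4OHT_siNT, a log2 fold change of 0.05 ± 0.11. NLRC5 had 3.82, 15.8 and 18.5 CPM and then 12.5, 16.4 and 19.04 CPM (0.16 ± 0.23, and -0.02 without 4-2V). With all libraries the 95% interval of the difference ran from -0.19 to 0.29 for HLA-E and from -0.33 to 0.65 for NLRC5, on the log2 scale.

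**Figure D1:**
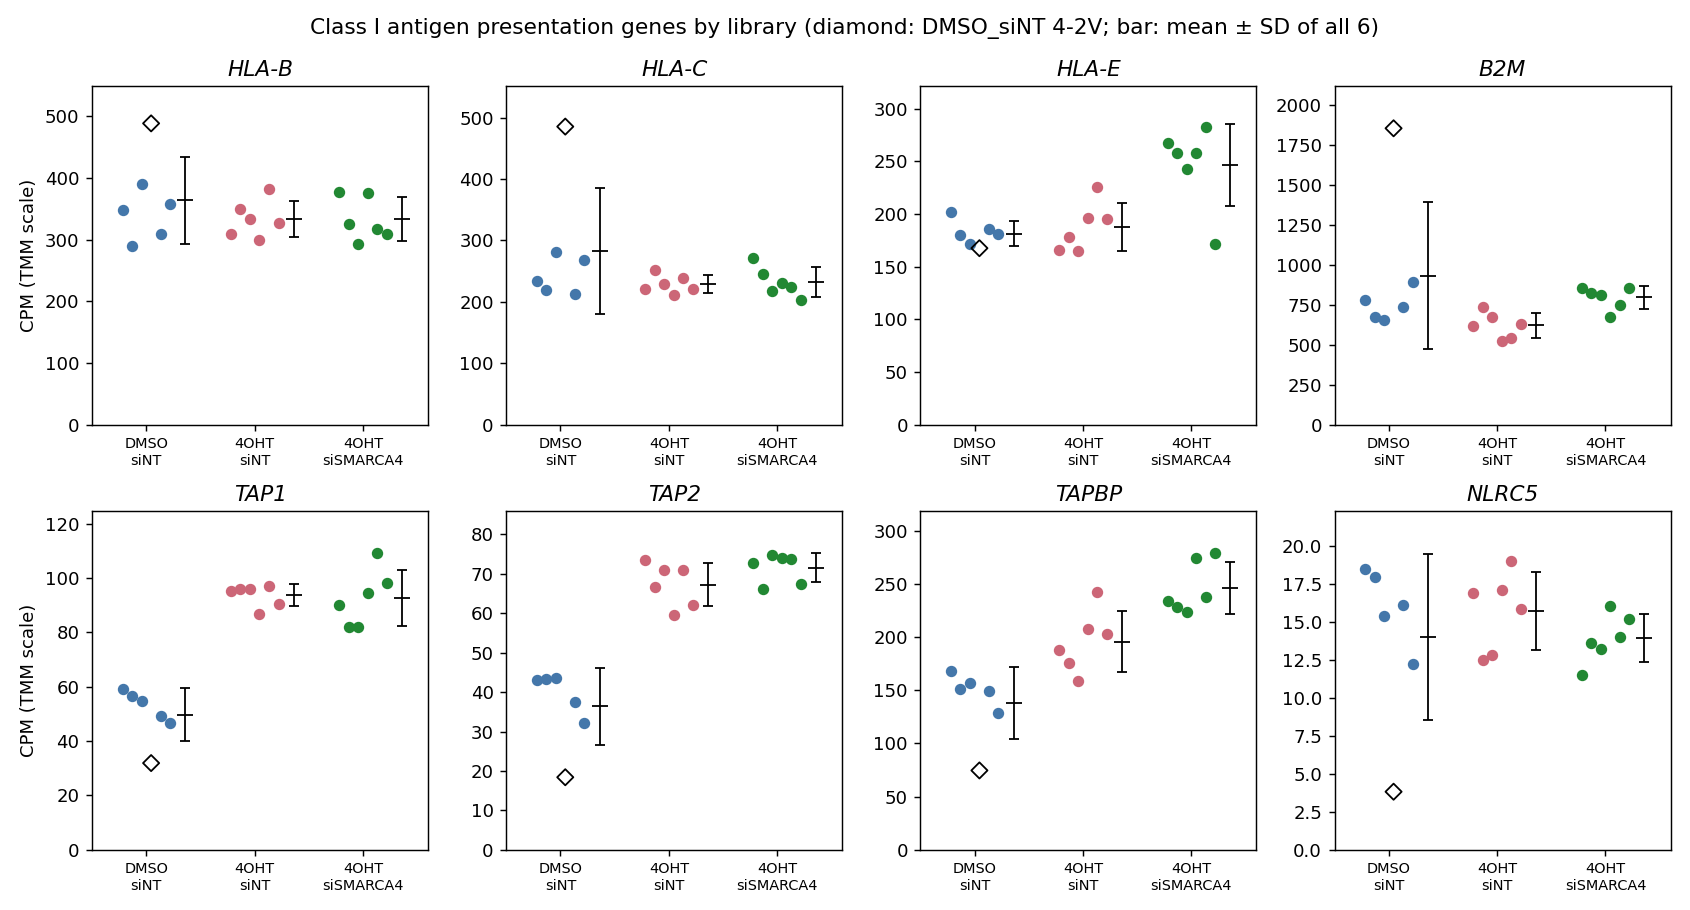
Each panel plots the CPM (TMM scale, vertical axis from 0) of 1 member in the 6 libraries of each group, with the mean ± SD beside them; the open diamond is DMSO_siNT 4-2V. TAP1 and TAP2 of all 4OHT libraries lie above all DMSO_siNT libraries, HLA-E is high in 5 of 6 4OHT_siSMARCA4 libraries, and the diamond is highest for HLA-B, HLA-C and B2M and lowest for TAP1, TAP2, TAPBP and NLRC5.

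With 4-2V left out, the same 3 members were called higher and B2M lower, where 27.9% of all genes were called higher and 30.3% lower. Within VM sets (3 DMSO_siNT and 6 4OHT_siNT libraries), TAP1 (log2 0.90), TAP2 (0.83) and TAPBP (0.44) were called higher and B2M (-0.30, adjusted p = 0.0497) lower, with 53.5% of all genes called. By siRNA number, TAP1 and TAP2 were called higher with siNT 2 (0.77 and 0.71) and with siNT 4 (1.11 and 1.13), with 37.2% and 52.1% of all genes called. TAPBP and B2M were called with siNT 4 (0.89 and -1.02) and not with siNT 2 (0.15 and -0.04). The difference between the siRNA numbers was not called for either gene (adjusted p = 0.130 for TAPBP and 0.126 for B2M). DMSO_siNT 4-2V is 1 of the 3 DMSO libraries with siNT 4. Without it, the DMSO libraries with siNT 4 were 4-2VM and 4-3VM. Of these, 4-3VM had the higher B2M level and also leaned by transcript length, as described below. The effects with siNT 4 were then 0.93 for TAP1, 0.88 for TAP2, 0.65 for TAPBP and -0.53 for B2M, all called, with 49.8% of all genes called. With siNT 2 TAP1 (0.76) and TAP2 (0.71) were called in that fit, with 52.2% of all genes called. The difference between siRNA numbers was again not called (adjusted p = 0.0719 for TAPBP and 0.120 for B2M).

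In this contrast the genes of peptide trimming and folding and of the immunoproteasome were called lower or not called. Their counts are read against the 28.9% of all genes that were called lower and the 23.9% called higher (30.3% and 27.9% without 4-2V). Of 6 genes of peptide trimming and folding, 2 fell and none rose, a share close to that of all genes: ERAP1, which trims peptides to length (log2 -0.76 ± 0.18 SE), and PDIA3, a disulfide isomerase of the loading complex (-0.29 ± 0.08). CALR, CANX, ERAP2 and TAPBPL were not called, and the median log2 fold change of the 6 was -0.19. Without 4-2V the counts were the same, with ERAP1 at -0.79, PDIA3 at -0.30 and a median of -0.14. HLA-G, a less variable heavy chain that is not a member, was not called (0.30 ± 0.22, and 0.15 without 4-2V).

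Of 5 immunoproteasome genes, which encode interferon-inducible proteasome subunits and activators, 3 fell and none rose. PSMB9 had 3.00, 6.21 and 18.8 CPM in DMSO_siNT and 1.24, 1.75 and 2.34 CPM in 4OHT_siNT, with no overlap, and fell by 2.25 on the log2 scale (adjusted p = 2.76e-05). PSMB8 fell by 1.07 and PSME1 fell by 0.94. All 5 of these genes had their highest value of any DMSO_siNT library in 4-2V. Without that library PSMB9 (-1.86) and PSME1 (-0.44) were still called, and PSMB8 was not (-0.20, adjusted p = 0.174). That left 2 of 5 lower, near the share of all genes. Median log2 fold changes of the 5 were -0.94 with it and -0.20 without it. Within VM sets PSMB9 was called lower (-1.26), and PSME1 (-0.30, adjusted p = 0.0596) and PSMB8 (-0.12) were not, with 53.5% of all genes called. The DMSO_siNT mean of PSMB9 was 4.19 CPM in VM sets and 8.44 CPM over all DMSO_siNT libraries.

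PSMB9 and TAP1, whose promoter windows are printed above, thus moved in opposite directions from start sites 488 bases apart. Of the 6 libraries of 4OHT_siNT, all had more TAP1 and less PSMB9 than any DMSO_siNT library, 4-2V included. The 4OHT_siSMARCA4 libraries overlapped with those of 4OHT_siNT in both genes, with 1.21 to 2.36 CPM of PSMB9. Their range ran past that of 4OHT_siNT at both ends for each gene.

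**Figure D2:**
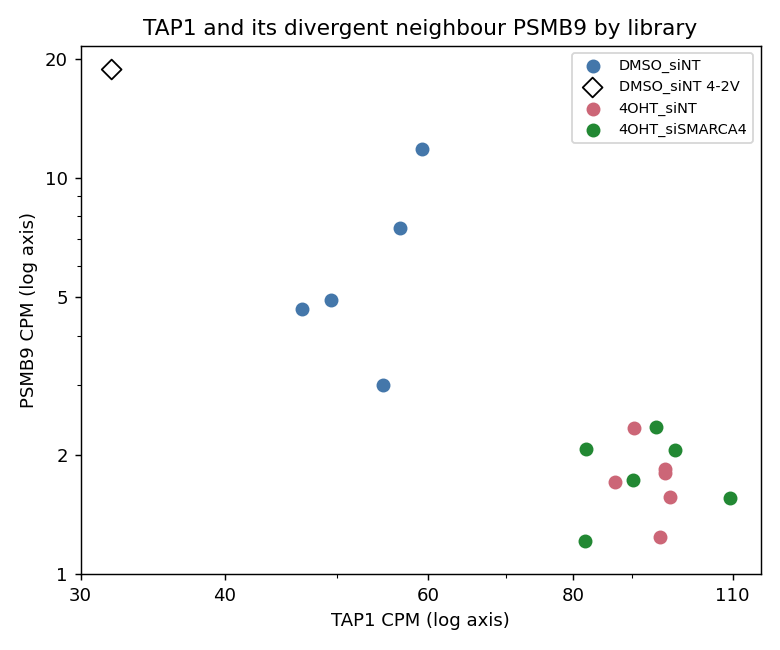
CPM of TAP1 (horizontal) and of PSMB9 (vertical), both on log axes, with 1 point per library and 1 color per group; the diamond is DMSO_siNT 4-2V. The 12 libraries given 4OHT lie at high TAP1 and at 2.36 CPM of PSMB9 or less, and the 6 DMSO_siNT libraries at low TAP1 and at 3.00 CPM of PSMB9 or more.

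Upstream of the pathway, 7 of 12 interferon signalling genes rose and none fell, with a median log2 fold change of 0.35 over the 12, where 23.9% of all genes rose. The receptor chains IFNAR1 (log2 0.37), IFNAR2 (0.63), IFNGR1 (0.53) and IFNGR2 (0.36) rose together with TYK2 (0.65), IRF1 (0.86 ± 0.14 SE), a transcription factor of class I genes, and IRF2 (0.35). Without 4-2V, 6 rose, against 27.9% of all genes. IRF2 was no longer called (0.28, adjusted p = 0.0633), and the median was 0.30. Of 8 interferon-stimulated genes that are not part of the pathway, 6 could be tested, of which 4 fell and none rose: IFIT1 (-3.12), GBP1 (-2.83), IFI6 (-1.24) and IFIT3 (-1.11). The median over the 6 was -1.17, where 28.9% of all genes fell (30.3% without 4-2V). Without 4-2V 4 fell as well, with IFIT1 at -2.83, GBP1 at -2.79, IFI6 at -0.81, IFIT3 at -0.94 and a median of -0.88. Within VM sets IFIT1 (-2.36), GBP1 (-2.74) and IFIT3 (-0.69) were called lower and IFI6 was not (-0.49, adjusted p = 0.136), with 53.5% of all genes called. The interferon genes themselves were at or near 0, with 1 count of IFNB1 in all 18 libraries and none of IFNG or IFNL1. Of 10 genes for factors of class I promoters, 3 rose and 2 fell with and without 4-2V, near the shares of all genes, with medians of -0.03 and -0.02. NFKB1 (0.97), RELA (0.58) and NFYA (1.15) were higher, NFYB and ATF1 (-0.48) lower, and the RFX5, RFXANK and RFXAP genes, whose products bind class I promoters with NLRC5, were not called. Of 8 class II genes, 3 passed the filter, and HLA-DMA, a class II peptide editor, was called lower (-3.13, and -3.11 without 4-2V).

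**Figure D3:**
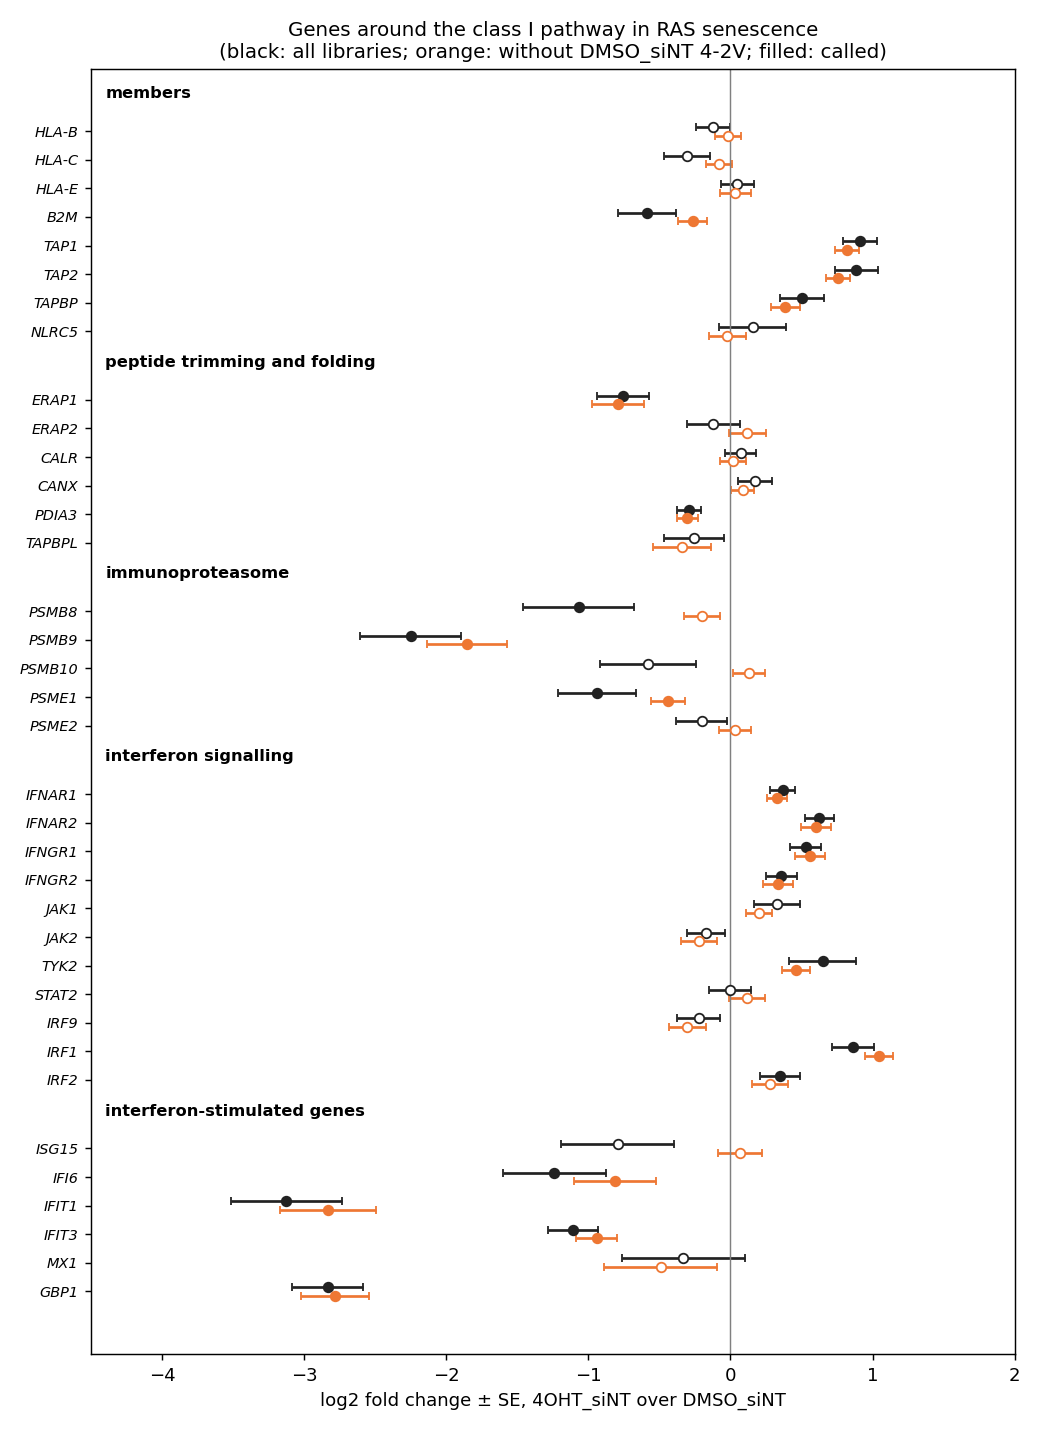
Fitted log2 fold change of 4OHT_siNT over DMSO_siNT with its SE for tested genes of 5 lists, with all 18 libraries (black) and without DMSO_siNT 4-2V (orange); filled points were called. TAP1, TAP2 and TAPBP lie on the right and PSMB9, GBP1 and IFIT1 on the left in both fits, while PSMB8, PSMB10 and ISG15 shift toward 0 or past it without the library.

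On SMARCA4 knockdown in senescent cells HLA-E rose, and no other member was called with all libraries in the fit. HLA-E was 1.31-fold higher in 4OHT_siSMARCA4 than in 4OHT_siNT, while TAP1 and TAP2 had log2 fold changes of -0.02 and 0.09. In this contrast 4.99% of all genes were called higher and 5.65% lower, beside 1 of 8 members higher and none lower. The median log2 fold change was 0.05 over the members and 0.01 over all genes tested.

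HLA-E, the ligand of the inhibitory NK receptor NKG2A, had 267, 258, 243, 258, 282 and 171 CPM in the 4OHT_siSMARCA4 libraries 2-3V, 2-3VM, unlabelled, 4-2V, 4-2VM and 4-3V. The 4OHT_siNT libraries 2-1VM, 2-2VM, 2-3VM, 4-1VM, 4-2VM and 4-3VM had 166, 178, 165, 196, 226 and 195 CPM. Of the knockdown libraries, 5 of 6 lay above every 4OHT_siNT library, and 4-3V lay near the bottom of their range. The log2 fold change was 0.39 ± 0.11 (SE, adjusted p = 0.0307), and 0.48 without 4-3V (adjusted p = 0.00320). Without 4-2V of DMSO_siNT, which is in neither arm but shares the estimate of the spread, it was 0.38 (adjusted p = 0.0102). The call did not hold up when any of 10 other libraries was left out in turn, with 4-2V kept: each of 2-1VM, 2-2VM, 2-3VM, 4-1VM and 4-3VM of 4OHT_siNT, and each of 2-3V, 2-3VM, 4-2V, 4-2VM and the unlabelled library of 4OHT_siSMARCA4. The adjusted p was then 0.0588 to 0.0968 and the log2 fold change 0.35 to 0.40.

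By siRNA, HLA-E was called with siSMARCA4_2 against siNT 2 (log2 0.60 ± 0.16 SE, adjusted p = 0.0283) and not with siSMARCA4_4 against siNT 4 (0.19 ± 0.16, adjusted p = 0.578), in contrasts that called 7.67% and 2.71% of all genes. Without DMSO_siNT 4-2V, HLA-E (0.59) and TAPBP (0.39) were called with siSMARCA4_2 and B2M (0.43) with siSMARCA4_4, beside 20.1% and 16.2% of all genes. With all libraries, the difference of 0.40 ± 0.22 in HLA-E between the siRNA numbers was not called (adjusted p = 0.763), where 0.0146% of genes were. Within VM sets, the 2 knockdown libraries had 258 and 282 CPM and the 6 4OHT_siNT libraries 165 to 226 CPM, with no overlap, and HLA-E was called (0.51, adjusted p = 0.00674) beside 21% of all genes.

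B2M and TAPBP were also higher in the knockdown group by point estimate, at log2 0.36 ± 0.20 (SE, adjusted p = 0.293) and 0.33 ± 0.15 (adjusted p = 0.189). B2M had 858, 825, 813, 677, 748 and 858 CPM in 4OHT_siSMARCA4, of which 5 of 6 exceeded the highest 4OHT_siNT library (738 CPM). TAPBP had 224, 236 and 279 CPM (lowest, median, highest) against 159, 195 and 242 CPM, an overlap made by the high 4OHT_siNT library 4-2VM. Without DMSO_siNT 4-2V both were called, at 0.35 ± 0.10 for B2M (adjusted p = 0.0127) and 0.32 ± 0.10 for TAPBP (adjusted p = 0.0208), so that 3 of 8 members were called higher and none lower against 11.7% and 12.9% of all genes. Within VM sets neither was called (B2M 0.33, adjusted p = 0.106; TAPBP 0.23, adjusted p = 0.237).

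TAP1, TAP2, HLA-B, HLA-C and NLRC5 were not called in either fit. TAP1 had 81.9, 92.3 and 109 CPM in 4OHT_siSMARCA4 (lowest, median, highest) and TAP2 had 66.3, 73.3 and 74.8 CPM. HLA-B had 293, 321 and 378 CPM, HLA-C 203, 228 and 272 CPM and NLRC5 11.5, 13.8 and 16.0 CPM. All 5 overlapped with 4OHT_siNT. The 95% intervals of the log2 difference without DMSO_siNT 4-2V were -0.19 to 0.14 for TAP1, -0.09 to 0.24 for TAP2, -0.20 to 0.18 for HLA-B, -0.17 to 0.19 for HLA-C and -0.44 to 0.07 for NLRC5.

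**Figure D4:**
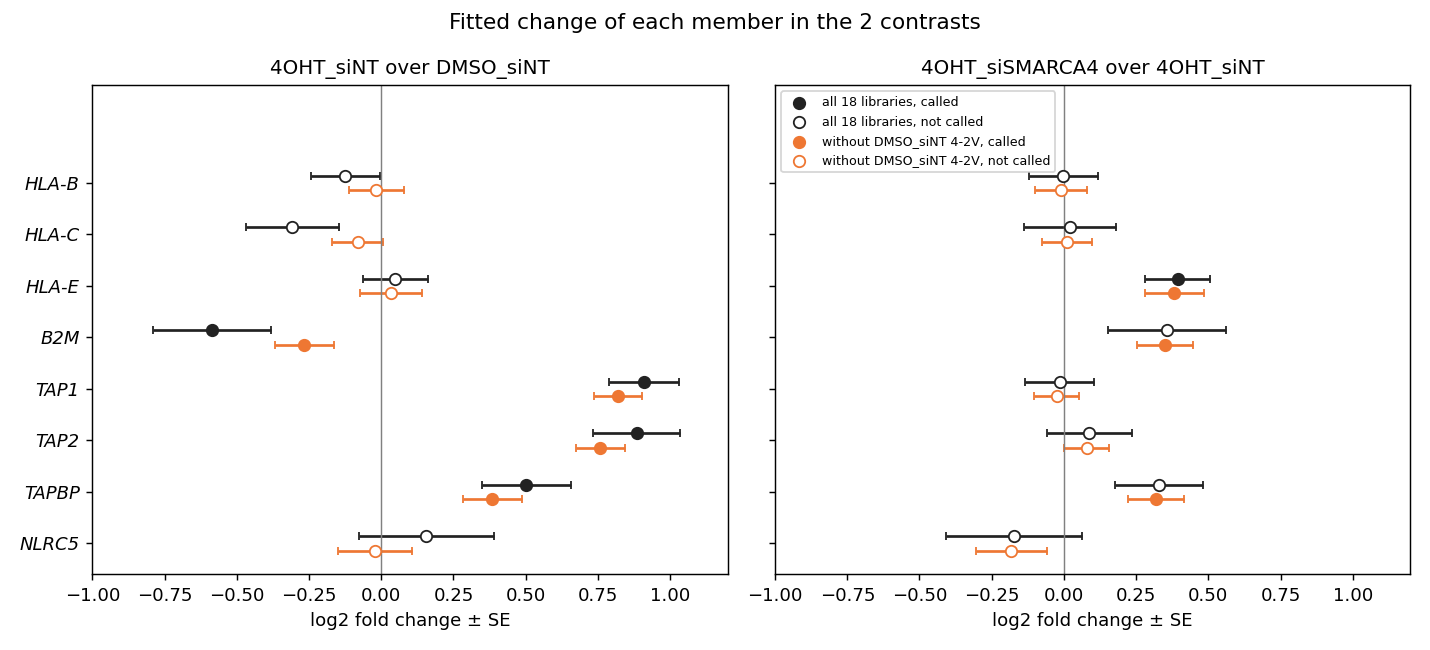
Fitted log2 fold change with its SE for the 8 tested members in senescence (left) and on SMARCA4 knockdown in senescent cells (right), with all 18 libraries (black) and without DMSO_siNT 4-2V (orange); filled points were called. TAP1 and TAP2 lie at 0.76 to 0.91 on the left and at -0.02 to 0.09 on the right, and HLA-E lies at 0.03 to 0.05 on the left and at 0.38 to 0.39 on the right.

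None of the genes for peptide trimming and folding, the immunoproteasome, interferon signalling or the 6 tested interferon-stimulated genes was called with all libraries, and their median log2 fold changes were -0.08, 0.05, 0.10 and -0.11. Of the promoter factors, ATF1 was called higher (log2 0.42, adjusted p = 0.0134). Without DMSO_siNT 4-2V, TYK2 (-0.26, adjusted p = 0.0484), a kinase of interferon receptors, and IFIT1 (-1.51, adjusted p = 0.0179) were called lower. Fibroblast markers moved with the groups: 4 of 7 fell in senescence (6 without DMSO_siNT 4-2V) and 6 of 7 on knockdown. Of all genes, 28.9% fell in senescence (30.3% without DMSO_siNT 4-2V) and 5.65% on knockdown. The summed level of the markers was 8620 to 12561 CPM in 4OHT_siSMARCA4, 14894 to 19792 CPM in 4OHT_siNT and 11280 to 31213 CPM in DMSO_siNT. VIM was not called in either contrast. Of 4 epithelial markers, the 2 tested (KRT8 and KRT19) fell in senescence, with a summed level of 46.3 to 69.4 CPM in DMSO_siNT and 6.30 to 9.76 CPM in the 4OHT groups, and CDH1 was near 0 throughout. Of 3 endothelial markers, VWF was tested and rose in senescence, with a summed level of at most 5.69 CPM in any library. The part of these markers in the results was not tested, and in bulk RNA fewer cells of a type and less RNA per cell cannot be told apart.

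Set against DMSO_siNT, the knockdown group had higher transporter, tapasin and HLA-E transcripts. TAP1 (log2 0.90 ± 0.12 SE), TAP2 (0.97 ± 0.15), TAPBP (0.83 ± 0.15) and HLA-E (0.44 ± 0.11) were called higher and none lower among the 8 members, against 23.3% of all genes higher and 27.3% lower. B2M was at -0.23 ± 0.20 and was not called. TAPBP did not overlap between these groups, as the lowest knockdown library had 224 CPM and the highest DMSO_siNT library 168 CPM. Without 4-2V the same 4 members were called (0.42 for HLA-E, 0.79 for TAP1, 0.84 for TAP2 and 0.70 for TAPBP), with 28.7% of genes called higher and 30.5% lower, and B2M stood at 0.08. In VM sets all 4 were called, with 43.9% of genes called. The contrasts share groups, so their values are not independent.

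The siRNAs and set labels gave no called difference of any member. Between siNT 2 and siNT 4, 0.0512% of genes were called in DMSO and 0.0732% in 4OHT, and between siSMARCA4_2 and siSMARCA4_4 0.00732%. The largest member difference between siNT 2 and siNT 4 in DMSO was -0.72 ± 0.24 (log2, SE) for B2M (adjusted p = 0.0804), in the group that holds 4-2V. Without 4-2V the B2M difference was -0.22 ± 0.13 (adjusted p = 0.382), and the largest was 0.31 ± 0.11 for TAP2 (adjusted p = 0.184). In that fit 0.26% of genes were called, with no member among them. Between V and VM libraries, 0.324% of genes were called in DMSO_siNT and 0.101% in 4OHT_siSMARCA4, and HLA-E differed by -0.22 ± 0.19 in the latter (adjusted p = 0.902).

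DMSO_siNT 4-2V differed from the other 5 DMSO_siNT libraries in opposite directions for different members. The log2 ratio to their mean was 1.31 for B2M, 1.00 for HLA-C and 0.53 for HLA-B, and -0.73 for TAP1, -1.01 for TAPBP, -1.10 for TAP2 and -1.94 for NLRC5. HLA-E, with a ratio of -0.14, was near the others. These ratios fell with transcript length, apart from the order of HLA-B and HLA-C: the canonical transcripts of B2M, HLA-B and HLA-C have 943, 1536 and 1542 bases, that of HLA-E has 2548, and those of TAP1, TAPBP, TAP2 and NLRC5 have 2685, 3450, 5643 and 6781. Over all tested genes with a length (97.0%), the median log2 ratio of 4-2V was 1.05 for transcripts under 1 kb and -0.29 for those of 4 to 8 kb, against -0.45 to 0.02 and -0.21 to 0.09 in the other libraries. Each of those other libraries was compared with a mean that includes 4-2V. Among them 4-3VM held the 0.02 and the -0.21. Over 8 kb its median was -0.40, where that of 4-2V was -0.24, so a lean by length was not limited to 4-2V. B2M lay above the median of its length bin, HLA-B and HLA-C lay above the median of 0.20 for 1 to 2 kb, and TAP1, TAPBP, TAP2 and NLRC5 lay below the medians of -0.21 for 2 to 4 kb and -0.29 for 4 to 8 kb. PSMB8 (2.56), PSMB10 (2.26), PSME1 (1.78), PSMB9 (1.49) and PSME2 (1.04), all of about 1 kb, were high in this library, as was IRF1 (0.83), whose canonical transcript has 3554 bases. The part of transcript length in these values was not tested.

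**Figure D5:**
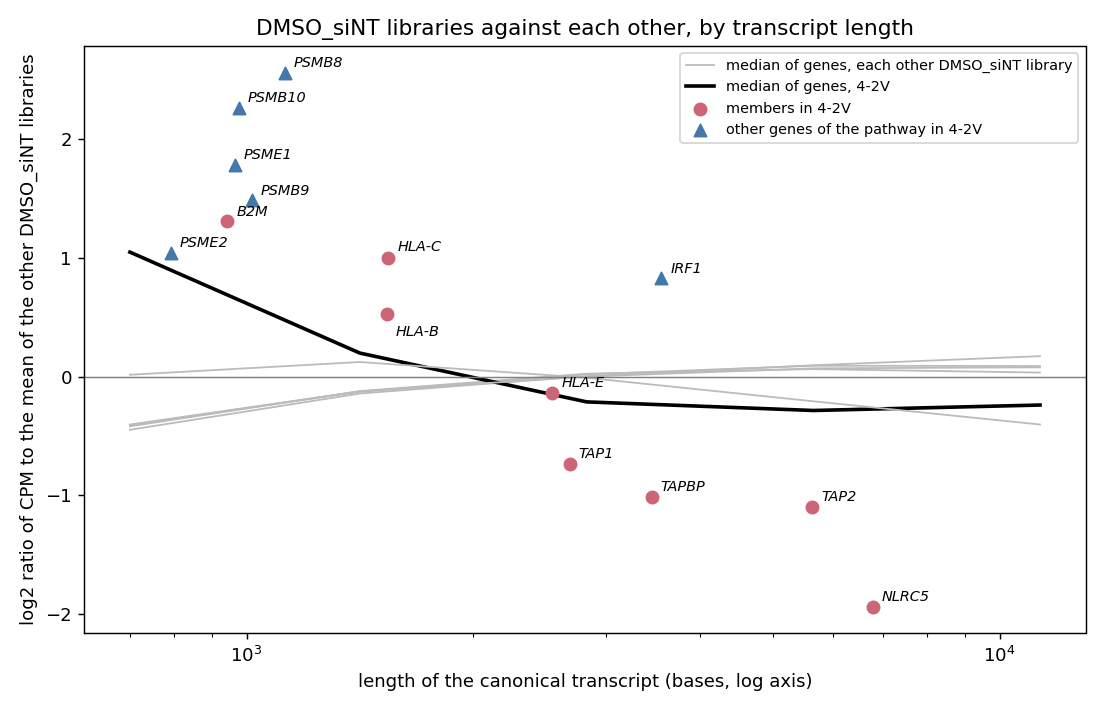
Log2 ratio of the CPM of DMSO_siNT 4-2V to the mean of the other DMSO_siNT libraries (vertical) against the length of the canonical transcript (horizontal, log axis) for members (circles) and other pathway genes (triangles); the lines join the medians of all genes in 5 length bins for each DMSO_siNT library against the rest, drawn at 1 position per bin. B2M and the immunoproteasome genes lie above 1 at the short end, and NLRC5 lies at -1.94 at the long end.

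Without 4-2V and with group means removed (17 libraries), Pearson's r of log2 CPM was 0.80 between HLA-B and HLA-C, 0.62 between TAP1 and TAP2, 0.85 between TAPBP and NLRC5, and -0.74 between B2M and NLRC5. These are descriptions over libraries that share group and depth. They include DMSO_siNT 4-3VM, which also leaned by transcript length, and the part of length in them was not tested. HLA-B and HLA-C are also close copies that could take each other's reads. With all 18 libraries and no removal of group means, r was 0.97 between TAP1 and TAP2 and -0.90 between B2M and NLRC5, in which 4-2V takes part.

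Over all 18 libraries, the 8 other genes closest to the mean standardized profile of the members were LRRC56 (r = 0.87), IL6 (0.86), UBL4A, CYBC1, L3MBTL2, SH2B2, AIFM2 and NTN1 (0.86). IL6 encodes a cytokine of the senescence-associated secretory phenotype. Members did not share 1 profile, with r of 0.97 between TAP1 and TAP2 and -0.90 between B2M and NLRC5. A gene close to their mean therefore need not follow each member. For single members, genes among the closest were TNFRSF10B (0.98) for TAP1, DPP4 (0.98) and CSRNP2 for TAP2, SGPL1 (0.97) and FAM234A for TAPBP, CC2D1B (0.85) for HLA-E, ZNF500 (0.80) and ZNF688 for HLA-B, ISG15 (0.95) and BAD for HLA-C, SRP9 (0.97) and REEP5 for B2M, and RPTOR (0.98) and SF3B3 for NLRC5. TNFRSF10B encodes a death receptor and DPP4 a surface peptidase. These correlations are descriptions over libraries that include 4-2V, in which HLA-C, B2M, TAP2, TAPBP and NLRC5 stood apart.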

How the data were processed

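RNA sequencing of poly(A) RNA was analysed for 18 libraries in 3 groups. According to the methods of the study, libraries were strand-specific and sequenced as single-end reads of 72 bases; the submitters' processing notes name STAR 2.7.8a, DESeq2 1.36.0 and the build hg38. The counting program, its annotation and its strand setting are not given in the sources used here. The authors deposited raw counts per gene, not normalized, in 36 columns (2 lanes per library), which were summed. Of 29 labelled samples, 17 matched a library; 1 further library matched a group only, and the remaining 12 were not analysed here. The members and gene lists were chosen with earlier results of these data known.

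Genes were filtered with filterByExpr (minimum count 10), which kept 13136 of 28266 genes and 99.9% of counts, scaled by TMM and tested with the quasi-likelihood F test of edgeR 4.0.16 (R 4.3.3), all 3 groups in 1 fit without covariates. P-values were two-sided and adjusted by Benjamini-Hochberg over all genes tested, with calls at an adjusted p under 0.05. SEs and 95% intervals were derived from the F statistic. The steps were tested on simulated data. Exon lengths and start sites are from GENCODE v44 and promoters from RefSeq, both on GRCh38. Genes were named as members, genes of the lists, SMARCA4, and those most correlated with the members (log2 CPM with a prior count of 2, mean above 1). Some genes of these lists are not reported here. Alternatives covered scaling, DESeq2 1.42.0, low-count filters, a set block, subsets of libraries and leaving out each library. The fits by siRNA number without DMSO_siNT 4-2V and the list counts without it were chosen after seeing the data. Depth per library was 9657309 to 18039313 counts; the lowest member values, of HLA-F, cannot show a difference at this depth. Libraries within a group were checked for duplicates by the chi-square of their counts per degree of freedom, 2.33 or more against at most 1.27 between lanes of 1 library, and none was treated as a duplicate.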

Additional observations from a re-analysis of the deposited data

Results flagged for a closer look

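In each group of 6 libraries, each of the 8 tested members was checked for a value whose gap to its nearest neighbour was a large share of the range of the group (Dixon's test at 95%). Of 24 sets of values, 6 stood apart, where chance gives about 1.2. Of these, 5 were in DMSO_siNT library 4-2V: HLA-C (gap of 0.664 of the range) and B2M (0.701), both high, and TAP2 (0.649), TAPBP (0.667) and NLRC5 (0.737), all low. The remaining value was HLA-E in 4OHT_siSMARCA4 library 4-3V, which was low (0.699).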

How the results depend on the processing

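TAP1 and TAP2 were called higher in senescence in 29 of 29 alternatives (log2 0.76 to 1.13 and 0.71 to 1.15), TAPBP in 27 and B2M lower in 24. HLA-E was called on knockdown in 17 of 29 and was positive in all of them (0.18 to 0.59). The knockdown contrast with 4OHT_siNT moved most: members called were 3 with these 2 groups alone in the fit, 3 with siRNA number 2, 0 with siRNA number 4 and 2 in VM sets with the unlabelled library, an alternative chosen after seeing the data. Genes called there were 3405, 3429, 4 and 4064 in these fits and 2858 in VM sets. Leaving out 1 library gave 0 to 3 members and 923 to 3269 genes, the upper end without DMSO_siNT 4-2V. In senescence, siRNA number 2 called 2 members. The fit of all libraries by siRNA number, given above, called 37.2% of all genes with siNT 2. Against DMSO_siNT, knockdown called 4119 genes with siRNA number 4, and with siRNA number 2 B2M turned from -0.23 to 0.24 (adjusted p = 0.0352). The causes were not tested. Correlations of deviations from the group means did not show that set labels pair the libraries (r -0.23 to 0.27 over 7 pairs of groups and sets). These correlations rest on few libraries per set, and set 2V includes DMSO_siNT 4-2V, so they cannot show that the sets are unpaired. In set 3VM r was 0.15 to 0.27. In a fit with sets as a replicate block, 2 members (TAP1 and TAP2, not TAPBP and B2M) and 4356 genes were called in senescence and 0 members and 236 genes on knockdown, and HLA-E had an adjusted p of 0.211, or 0.0494 without DMSO_siNT 4-2V, chosen after seeing the data. Another scaling moved the median of all genes by at most 0.01. Few counts limited HLA-F; for the other members the spread between libraries did.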
